A study of Rattus norvegicus with 4 samples.

Results

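The insulin-like growth factor (IGF) family was followed in aged rat tendon stem/progenitor cells (rTSPCs) treated with prim-O-glucosylcimifugin (POG) or with its solvent DMSO. Members were taken by gene symbol: the ligands Igf1 and Igf2, the receptor Igf1r, the binding proteins Igfbp2 to Igfbp7, and Pappa, the pregnancy-associated plasma protein A. Of these 10 genes, 8 had a named feature in the deposited table of 10141 features, among 7235 named genes in all. Shares of all named genes below refer to that table. Igf2 and Pappa had none there, which does not say that the array lacks them, and were not analysed here. The family was proposed with the difference between POG and DMSO on these same arrays already known, so it counts as chosen by the signals of this contrast, and the differences of its members are given as a description without p-values.

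IGF-1 and IGF-2 are secreted peptides that promote growth and survival through IGF1R, a receptor tyrosine kinase that signals to the PI3K-AKT and RAS-MAPK cascades. In tissue they are held by IGF-binding proteins (IGFBPs), which keep the ligand from the receptor, carry it or store it in the matrix, and release it when proteases cut them. Tendon cells make IGF-1 themselves, and IGF-1 is known to stimulate collagen synthesis in tendon.

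The cells came from the Achilles tendons of male Sprague-Dawley rats, were picked as colonies and were grown in medium with fetal bovine serum, which itself brings IGFs. The labels give rats of 18 months for all 4 arrays, POG at 20 μM for the 18M + POG group (2 arrays) and an equal amount of DMSO for the 18M + DMSO group (2 arrays). They also name treatment until passage 12, a passage that the study uses for its serially passaged cells. For aged rTSPCs the study describes a treatment of days only. The passage of these cells and the length of their treatment are therefore unsettled. The titles call the 2 arrays of a group biological replicates. Whether they came from different rats or cultures is not stated, and the errors below cover no spread beyond these arrays. They are moderated errors from limma, which combine a gene's own spread between arrays with that over all named genes.

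Values are log2 signals after robust multichip analysis (RMA), so a difference of 1 is a doubling of the signal. The array medians lay between 8.55 and 8.68, and arrays correlated across features at 0.9945 to 0.9952 within groups and at 0.9621 to 0.9654 between groups. Titles of the DMSO arrays name both treatments, so groups follow the treatment entries. Markers of mesenchymal stem cells (Thy1, Eng, Itgb1, Cd44 and Nt5e) were all measured, with a mean log2 signal of 13.05 to 13.42, and 6 of 8 tendon markers gave 13.91 to 14.20. Of the stem cell markers, Nt5e was dim, at 4.71 on both DMSO arrays and 5.67 and 5.69 on the POG arrays. Eng and Nt5e were called higher with POG (log2 fold change 0.665 and 0.97) and Cd44 lower (-0.81). Scx, the tendon transcription factor, was also dim at 5.48 to 6.09. Of the tendon markers, Dcn was called higher with POG (log2 fold change 1.18) and Tnc and Thbs4 lower (-1.63 and -0.925), the call of Thbs4 being lost without DMSO replicate 1 (adjusted p = 0.0539 in limma). Of 16 measured markers of other cell types (34 written), 7 were called higher and 2 lower, where 20.4% and 17.2% of all named genes were, and 3 to 4 and 0 to 1 with any 1 array left out. Myh11, the smooth muscle myosin gene, rose from 7.94 and 7.80 to 11.07 and 10.95 (log2 fold change 3.14), and Acan, which encodes the cartilage proteoglycan aggrecan, by 1.18. The other measured markers of the pericyte and smooth muscle list were mixed. Cnn1 was called higher (0.86), Cspg4 was called lower (-0.84) and Acta2 overlapped between the groups. Whether the calls of Eng, Nt5e, Cd44, Cnn1 and Cspg4 hold with an array left out is not given here. Dividing-cell genes differed as a whole list. All 7 measured of 8 passed as lower with POG (limma, adjusted p under 0.05), and their mean log2 signal was 13.05 and 13.15 on the DMSO arrays and 9.50 and 9.76 on the POG arrays. As labelled, that direction is opposite to the proliferation staining described in the study, and an exchange of the group labels was not tested. The part of these markers and of cell division in the values below was not tested either. In bulk RNA, fewer cells of a type and less RNA per cell cannot be told apart.

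Within the IGF family, Igfbp5 and Igfbp4, 2 of the 6 measured binding protein genes, had by far the largest differences between the groups. Both were higher in the arrays labelled 18M + POG, by 11.1-fold and 4.06-fold. Igfbp7 and Igfbp6 were higher by 1.64-fold and 1.54-fold. The receptor gene Igf1r ran the other way and was 1.85-fold lower with POG. The ligand gene Igf1 and the binding protein genes Igfbp2 and Igfbp3 had overlapping arrays. In the limma fit over all named genes, at an adjusted p under 0.05, 4 of the 8 measured members were called higher and 1 was called lower, where 20.4% and 17.2% of all named genes were. With any 1 array left out, 2 stayed higher, Igfbp5 and Igfbp4, and 0 to 1 lower. By the methods' t-test with a fold over 1.5, unadjusted, 3 were higher and 1 lower, where 21.7% of all named genes passed in either direction. Both POG arrays lay above both DMSO arrays for 4 members and below them for 1, as for 37.2% and 32.7% of all named genes (69.8% in either direction), so arrays that stand apart were common. The median log2 fold change was 0.43 over the 8 members and 0.67 over the 6 binding proteins, beside 0.04 over all named genes.

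**Figure D1:**
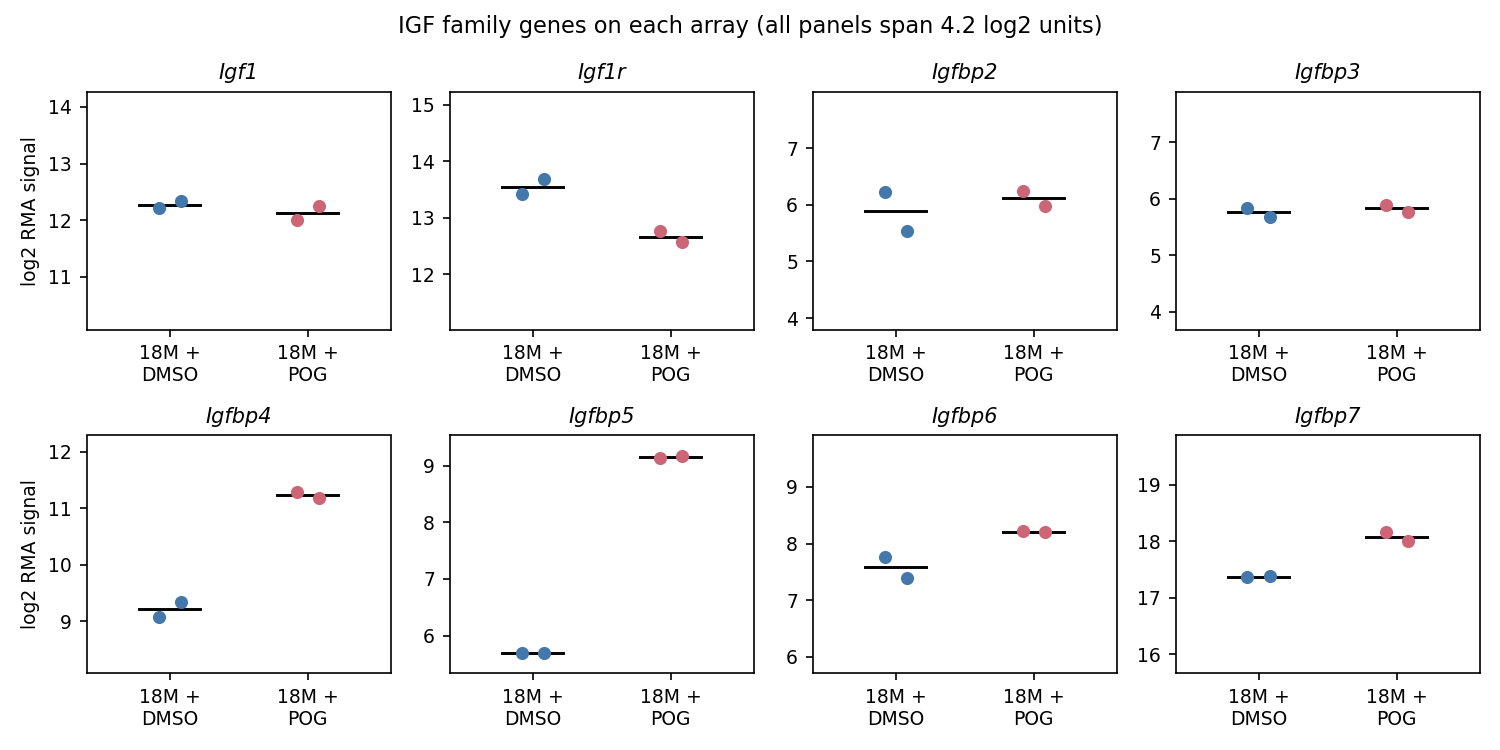
Log2 RMA signal (vertical axis) of the 8 measured IGF family genes on each array, with the mean of each group as a line; every panel spans the same number of log2 units. The POG arrays lie far above the DMSO arrays for Igfbp5 (9.14 and 9.18 against 5.69 and 5.69) and Igfbp4, and below them for Igf1r.

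Igfbp5 encodes a matrix-binding IGFBP, the most conserved of the family, which is made by bone, muscle and connective tissue cells. Its feature (TC0900002215.rn.2) read 5.69 on both DMSO arrays, and 9.14 and 9.18 on the POG arrays. The groups lay 3.45 log2 units apart at their closest, and the arrays of one group differed by at most 0.04. The log2 fold change was 3.47 (standard error 0.19, n = 2 in each group), the fifth most positive of 7235 genes. The DMSO signal was below the 25th percentile of those arrays (6.31 and 6.37). No detection values were used here, so this signal was not told from background and the size of the difference is uncertain on that side. With any 1 array left out, the value lay between 3.45 and 3.49.

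Igfbp4 encodes an IGFBP known to hold back IGF action until PAPP-A cuts it. Its feature (TC1000001598.rn.2) read 9.08 and 9.35 on the DMSO arrays and 11.29 and 11.18 on the POG arrays. The lower POG array stood 1.83 log2 units above the higher DMSO array. The log2 fold change was 2.02 (standard error 0.20), and it lay between 1.89 and 2.15 with any 1 array left out. Of all named genes, 96.6% differed by less in absolute terms. Pappa had no named feature, so the cutting enzyme is not set beside its substrate here.

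Igfbp7 encodes a secreted protein that binds IGFs only weakly and also binds insulin. It read 17.37 and 17.38 on the DMSO arrays and 18.17 and 18.00 on the POG arrays (feature TC1400000368.rn.2). The groups did not overlap, and the log2 fold change was 0.71 (standard error 0.19). Igfbp6, whose product prefers IGF-2 over IGF-1, read 7.77 and 7.40 against 8.22 and 8.20 (feature TC0700001891.rn.2). Here the DMSO arrays differed from each other by 0.37, nearly as much as the gap of 0.43 between the groups. The log2 fold change was 0.63 (standard error 0.20). Both genes fell short of the threshold when any 1 of the 4 arrays was left out, with values of 0.62 to 0.80 for Igfbp7 and 0.44 to 0.81 for Igfbp6. Differences of this size were common, as 73.8% and 68.0% of all named genes had a smaller one.

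Igfbp3 encodes the main carrier of IGFs in serum and Igfbp2 an IGFBP with an integrin-binding motif. Igfbp3 read 5.84 and 5.68 on the DMSO arrays and 5.89 and 5.77 on the POG arrays (feature TC1400002217.rn.2). Its log2 fold change was 0.07 (standard error 0.19), so no difference was visible beyond the spread. Igfbp2 read 6.23 and 5.54 against 6.25 and 5.98 (feature TC0900000874.rn.2), a log2 difference of 0.23 (standard error 0.24). The DMSO arrays alone differed by 0.69 for Igfbp2, the widest gap between arrays of a group in the family. Both genes were below the 25th percentile of the signals on all 4 arrays, so a difference may also have gone unseen at this signal.

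Igf1, the ligand, read 12.21 and 12.33 on the DMSO arrays and 12.00 and 12.25 on the POG arrays (feature TC0700000447.rn.2). The groups overlapped, and the log2 fold change was -0.145 (standard error 0.20). Igf1r read 13.43 and 13.68 on the DMSO arrays and 12.76 and 12.57 on the POG arrays (feature TC0100001713.rn.2). Every POG array was lower than every DMSO array, by 0.67 at the closest, and the log2 fold change was -0.89 (standard error 0.20). Its call was lost without DMSO replicate 2 (log2 fold change -0.765) and without POG replicate 2 (-0.795). Thus Igf1r was lower while Igfbp4 to Igfbp7 were higher, and Igf1, Igfbp2 and Igfbp3 had overlapping groups.

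**Figure D2:**
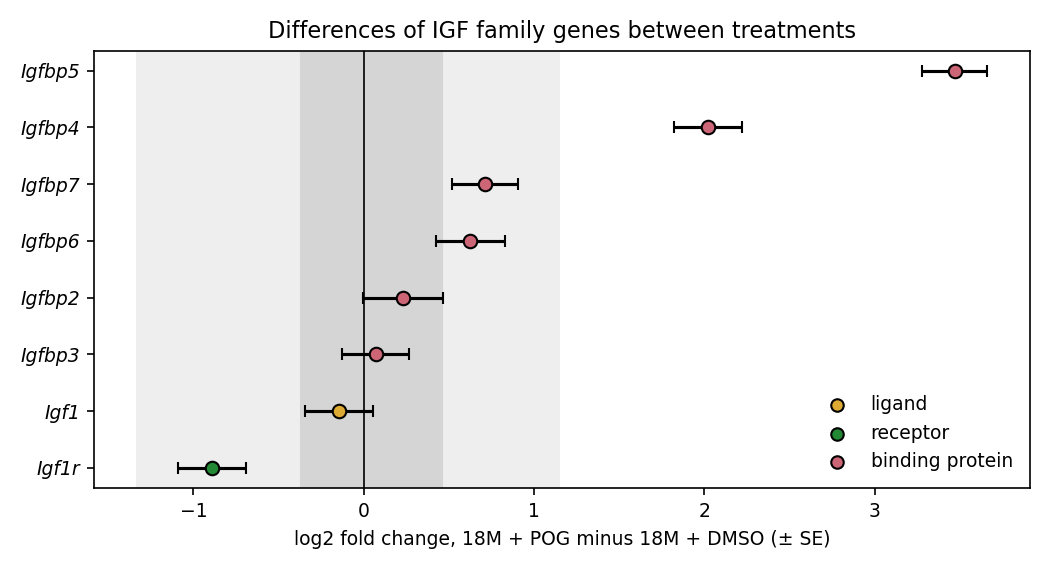
Log2 fold change (18M + POG minus 18M + DMSO, horizontal axis) of the 8 measured members with the standard error from limma as bars, coloured by role. The dark band holds the middle of all named genes, from the 25th to the 75th percentile (-0.37 to 0.46), and the pale band runs from the 5th to the 95th (-1.33 to 1.15); Igfbp5 at 3.47 and Igfbp4 at 2.02 lie beyond it and Igf1r at -0.89 within it.

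Differences taken within each array do not change when an array is shifted as a whole. They restate the fold changes given above relative to Igf1 and are no added evidence. The log2 signal of Igfbp4 relative to that of Igf1 was 2.16 higher with POG. Igf1r relative to its ligand Igf1 was lower, at -0.74. Igfbp5 was left out here because its DMSO signal was not told from background. In the GRCr8 annotation Igfbp2 and Igfbp5 are next to each other on chromosome 9, with no other protein-coding gene between them. Igfbp2 was at 0.23 and Tnp1, the measured gene on the other side of Igfbp5, at 0.17, and neither was called. However, Igfbp2 was dim throughout, and both were among the dimmest 25% of named genes by mean signal. Polr2b beside Igfbp7 and Spryd3 beside Igfbp6 were at -0.06 and 0.16 and did not pass, while Parpbp beside Igf1 was called lower at -2.59.

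**Figure D3:**
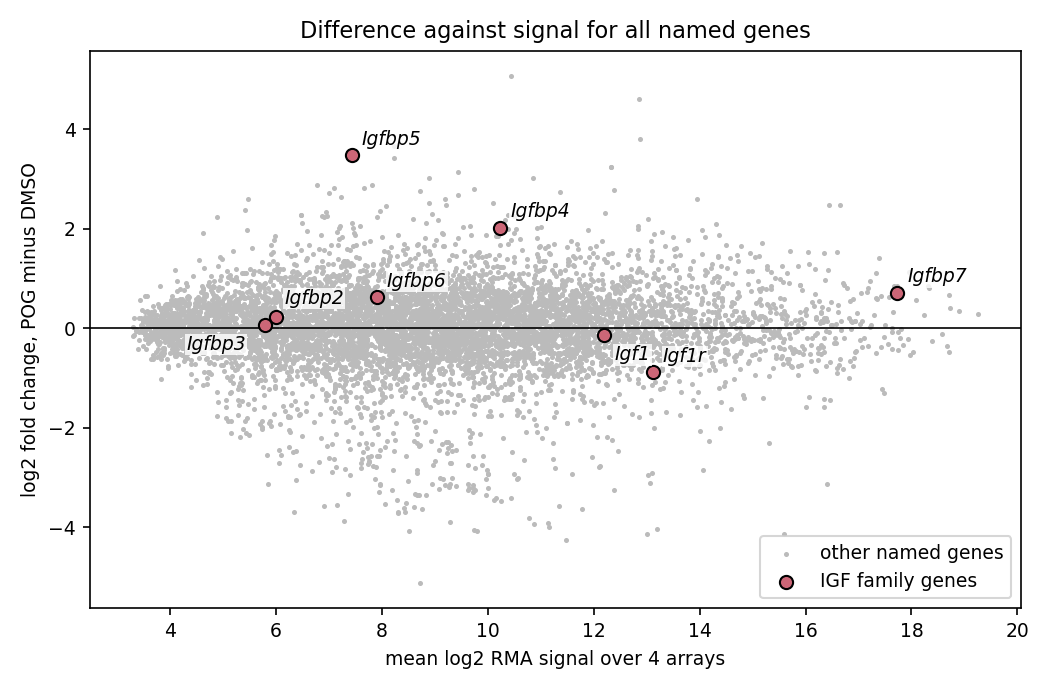
Log2 fold change (POG minus DMSO, vertical axis) against the mean log2 RMA signal over the 4 arrays (horizontal axis) for all 7235 named genes in grey and the 8 family members in red. Igfbp5 stands near the upper edge of the cloud at its signal, and Igfbp2 and Igfbp3 lie near 0 at the dim end.

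The genes with the profile most like that of Igfbp5 were Nupr1, Cilp and Slit3, by Euclidean distance of gene-centred log2 signals over the 4 arrays (0.242, 0.272 and 0.320). Cilp, which encodes a cartilage matrix protein, read 6.54 and 6.26 on the DMSO arrays and 10.05 and 10.06 on the POG arrays. Nupr1, a stress-induced nuclear protein, had a log2 fold change of 3.23, and Slit3, a secreted guidance ligand, also 3.23. With 4 arrays in 2 groups, such likeness says little more than that the genes differed by a similar amount.

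The 250 bases before the RefSeq transcript starts of Igfbp5 and Igfbp4, the pair with the largest increase, are shown with those of Igf1r, the member that was lower. Capitals mark matches, read on either strand, to 4 motifs. The first is the core promoter element TATAAA. The second is the box with the letters CCAAT, found in many promoters. The Sp1 element was searched for as GGGCGG and is called a GC box here. The last one, bound by forkhead factors such as FOXO1, was searched for as GTAAACA in the same windows. No match in a window of the members overlapped another.
Igfbp5 (GRCr8, chr9:81914188-81914437, minus strand): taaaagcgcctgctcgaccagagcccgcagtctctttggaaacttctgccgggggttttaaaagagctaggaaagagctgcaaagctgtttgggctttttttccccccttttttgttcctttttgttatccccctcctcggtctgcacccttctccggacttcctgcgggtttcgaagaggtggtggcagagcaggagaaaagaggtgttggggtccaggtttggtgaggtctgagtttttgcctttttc
Igfbp4 (GRCr8, chr10:84491221-84491470, plus strand): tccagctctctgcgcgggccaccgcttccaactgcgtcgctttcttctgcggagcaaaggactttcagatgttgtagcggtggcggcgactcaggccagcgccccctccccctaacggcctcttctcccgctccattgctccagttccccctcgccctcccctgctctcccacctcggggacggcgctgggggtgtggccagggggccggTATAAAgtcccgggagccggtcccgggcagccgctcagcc
Igf1r (GRCr8, chr1:130959747-130959996, plus strand): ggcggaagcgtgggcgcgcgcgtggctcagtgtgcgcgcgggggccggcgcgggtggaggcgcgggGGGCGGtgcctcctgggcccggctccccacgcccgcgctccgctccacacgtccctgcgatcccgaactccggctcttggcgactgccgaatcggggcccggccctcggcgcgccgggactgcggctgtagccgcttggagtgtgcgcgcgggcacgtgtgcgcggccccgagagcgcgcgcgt
The window of Igfbp4 held a TATA box, starting 40 bases before the transcript start, as 12.9% of 33469 rat promoter windows of this length hold it. The window of Igf1r held 1 GC box, and that of Igfbp5 held none of the 4 motifs. A CCAAT box, held by 34.0% of all windows, was in none of the windows of the 8 measured members. Among the other members, Igfbp7 had 4 GC boxes, Igfbp2 had 1, and Igfbp6 had 1 forkhead match, where 30.5% of windows held a GC box and 3.2% a forkhead match. GC content was 51.6% for Igfbp5, 68.8% for Igfbp4 and 79.6% for Igf1r, with a median of 51.2% over all windows. Because the Igfbp5 window held none of these motifs, it could share none with that of Igfbp4, and wider windows were not searched.

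Around the family, 68 genes of 6 lists were measured, and with POG 30 of them rose and 10 fell (limma, adjusted p under 0.05). These lists were also chosen with earlier results of these data known. Their shares and adjusted p-values, here and below, are therefore a description and not an independent test. These are 44.1% and 14.7% of the listed genes, beside 20.4% and 17.2% of all named genes. Leaving out any 1 array gave 16 to 19 and 6 to 7. Of 6 measured genes of the IGF axis outside the family (13 written), 4 rose (2 to 3 with any 1 array left out) and 0 fell, beside 20.4% and 17.2% of all named genes, with a median log2 fold change of 0.85 beside 0.04 over all named genes. None fell by limma without adjustment (0 under p of 0.05) or by the methods' t-test (0). Stc1, which encodes stanniocalcin-1, an inhibitor of PAPP-A, rose from 7.44 and 7.22 to 8.51 and 8.73 (log2 fold change 1.29, adjusted p = 0.000174 from limma). Lrp1, a scavenger receptor, rose from 13.63 and 13.92 to 15.08 and 14.95 (1.24, adjusted p = 0.000247). The receptors that clear IGF-2 or bind insulin rose less. Igf2r, the mannose 6-phosphate receptor, was at 0.855 (adjusted p = 0.00607) and Insr at 0.85 (adjusted p = 0.00423). The call of Igf2r was lost without DMSO replicate 1, DMSO replicate 2 or POG replicate 1 (adjusted p = 0.055 to 0.121), and that of Insr without DMSO replicate 1 or either POG array (0.0503 to 0.0872). Stc2, the other stanniocalcin, was at -0.38 and did not pass.

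Among 13 measured proteases that cut IGFBPs in vitro (17 written), 7 rose and 2 fell (adjusted p under 0.05, limma), which is 53.8% and 15.4% beside 20.4% and 17.2% of all named genes. Their median was 0.81, and that of all named genes 0.04. Leaving out any 1 array gave 5 to 7 and 1. C1s, a complement protease that cuts IGFBP-5 in human fibroblast cultures, rose from 7.42 and 7.33 to 9.21 and 9.28 (log2 fold change 1.87, adjusted p = 3.5e-06). The plasminogen activator gene Plat rose from 9.17 and 9.31 to 11.32 and 10.85 (1.85, adjusted p = 1.1e-05), whereas Plau, the urokinase gene, was lower at -1.36. The matrix metalloproteinase genes Mmp14 and Mmp11 rose by 1.72 (adjusted p = 9.6e-06) and 1.46 (adjusted p = 9.7e-05). Htra1, a serine protease that cuts several IGFBPs, was at -0.27 and did not pass.

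Of 24 measured genes of IGF1R and insulin receptor signalling (53 written), 7 rose, 4 fell and 13 did not pass (29.2% and 16.7% higher and lower, beside 20.4% and 17.2% of all named genes), with a median of 0.27. Fits without any 1 array called 1 to 2 higher and 1 to 2 lower. Of all named genes, 37.6% passed in either direction. Pik3r1, the p85 regulatory subunit of PI3K, rose from 9.12 and 9.37 to 11.34 and 11.50 (log2 fold change 2.17, adjusted p = 1.1e-06 from limma). Irs1, the adaptor that couples both receptors to PI3K, rose from 8.27 and 8.92 to 9.94 and 9.97 (1.36, adjusted p = 0.00032), a call lost without either POG array (adjusted p = 0.0549 and 0.06). Irs2, its paralog, was at -0.23 and did not pass. Pik3cb, a catalytic subunit, fell by 1.48 (adjusted p = 5.6e-05). Arrb1, which encodes β-arrestin 1, fell by 0.845 (adjusted p = 0.0257). That value rests on POG replicate 2, at 5.35 beside 6.38 in POG replicate 1, and was -0.33 without it (adjusted p = 0.289). Its call was also lost without either DMSO array (adjusted p = 0.192 and 0.26). Foxo1 and Foxo3, transcription factors that this cascade keeps out of the nucleus, were added after their values were seen. They were called higher at 0.55 and 0.79 (limma, adjusted p under 0.05). Both calls were lost with any 1 array left out, at 0.455 to 0.645 and 0.695 to 0.885.

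Growth hormone drives Igf1 transcription through its receptor and STAT5. Of 6 measured genes of that axis (9 written), 3 rose (2 to 3 with any 1 array left out) and 0 fell (limma), beside 20.4% and 17.2% of all named genes, with a median of 0.54. Without adjustment 0 fell under a p of 0.05, and 0 by the methods' t-test. Ghr, the growth hormone receptor gene, rose from 8.19 and 7.86 to 9.13 and 9.09 (log2 fold change 1.08, adjusted p = 0.000772 from limma). Jak2, the kinase bound to it, rose from 10.72 and 11.33 to 12.20 and 12.70 (1.42, adjusted p = 0.00037), a call lost without DMSO replicate 1 or POG replicate 2 (adjusted p = 0.0513 and 0.07). Socs2, a feedback inhibitor of this receptor, rose from 6.61 and 7.19 to 8.59 and 8.73 (1.76, adjusted p = 2.6e-05). Stat5a was at -0.06 and did not pass, and Igf1 itself overlapped between the groups as given above.

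**Figure D4:**
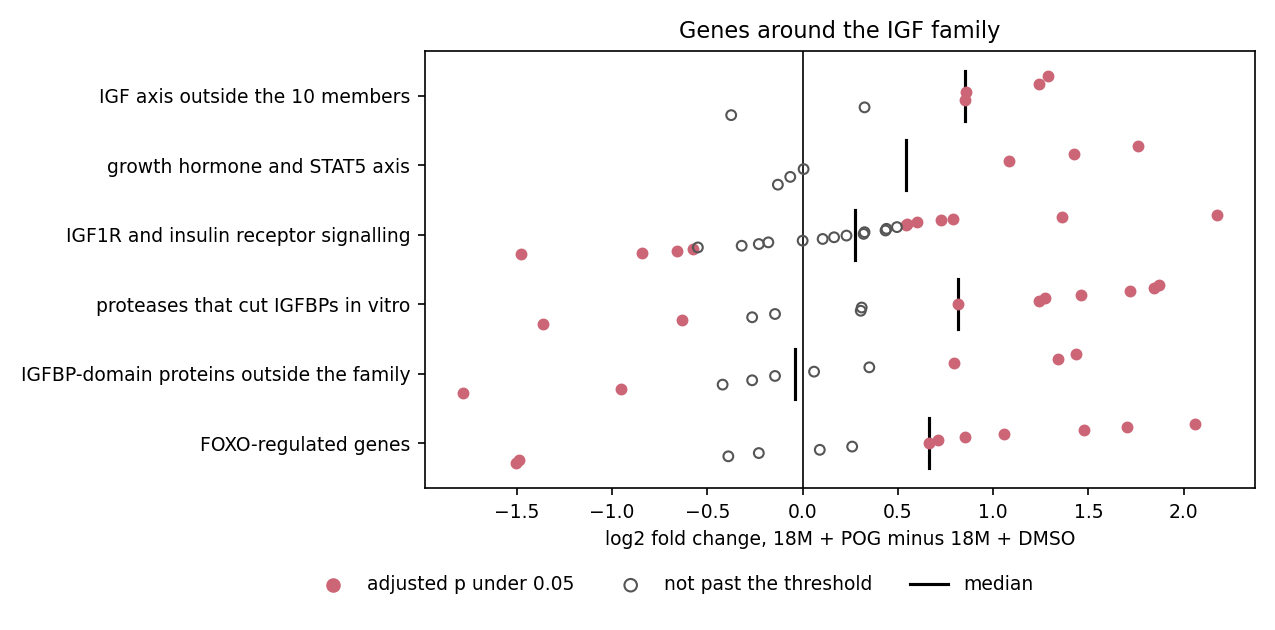
Log2 fold change (18M + POG minus 18M + DMSO, horizontal axis) of every measured gene in 6 lists around the IGF family, with filled points at an adjusted p under 0.05 from limma, open points otherwise and the median of each list as a line. Medians run from -0.04 for the proteins with an IGFBP domain to 0.85 for the IGF axis.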

How the data were processed

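Biotinylated cDNA of aged rTSPCs was read on 4 Affymetrix Rat Transcriptome Arrays. The authors deposited log2 values made by robust multichip analysis with default settings and global scaling; the software version and genome build are not given in the sources used here. The series matrix, also deposited, was identical in 10141 of 10141 features.

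Features were named through the platform annotation (7240 with 1 symbol, 2901 unnamed), and all 7240 gene IDs stood in the GRCr8 gene table. For 4 genes with several features the one with the highest mean was kept. No filter on signal was applied. The difference POG minus DMSO was estimated for each gene with lmFit and eBayes of limma 3.58.1 (R 4.3.3), without covariates. Benjamini-Hochberg adjusted p-values were taken over 7235 genes and called under 0.05. An exact permutation test of 2 arrays against 2 gives no two-sided p under 0.333. The number of arrays limits the precision. The fit was also run on simulated arrays with a common spread for all genes and few changed genes. That setting differs from these data, so it says little about the calls given here.

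The members, gene lists and alternatives were chosen with earlier results of these data known. Named were all measured members, up to 4 called genes per list, by size of change, whose groups did not overlap, and 3 genes most like Igfbp5. Plau, Htra1, Stc2, Irs2, Stat5a, Foxo1, Foxo3, Ccn1, Ccn2, the cell type markers given with a difference and the gene neighbours were added after their values were seen. Upstream sequences are from RefSeq (GRCr8) and were found for 9 of the 10 members (not Pappa). Alternatives were the series matrix, quantile normalization, median subtraction, a filter that removed the dimmest 25%, averaging a gene's features, a fit over all features, the replicate block, a variance trend, leaving out each array, and the methods' t-test (fold over 1.5) with and without adjustment. Figures were drawn with matplotlib 3.10.9.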

Additional observations from a re-analysis of the deposited data

How the results depend on the processing

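The counts for the IGF family (4 higher, 1 lower) were the same under the series matrix, quantile normalization, median subtraction, removal of dim genes, the mean of features, the fit over all features, the variance trend and the replicate block. With the replicate block, limma called 4 members higher and 1 lower, 31 and 10 genes of the lists, and 1599 and 1358 of all genes. The labels do not say that a number marks a shared culture or day. Deviations of same-numbered arrays correlated at 0.161 over 2 pairs, which does not settle a pairing. Leaving out each array in turn gave 2 members higher under each omission and 0 to 1 lower, 16 to 19 list genes higher and 6 to 7 lower, and 523 to 660 of all genes higher and 592 to 619 lower, with fewer arrays to estimate the spread. Without DMSO replicate 2, Igfbp2 was at -0.115 and Igfbp3 at -0.01, opposite to the values given, and over all omissions they ran up to 0.575 and 0.15. The methods' t-test without adjustment gave 3 members higher and 1 lower, and 786 of all genes higher and 784 lower. After Benjamini-Hochberg adjustment it gave 0 in each of these counts. For single members, 92 of 110 alternatives kept direction and side of the threshold, 16 lost the threshold and 2 reversed. The series matrix, the mean of features and the fit over all features could not change a log2 fold change here. Nor could the replicate block, the variance trend or either t-test. Members that were never called, such as Igf1, also count as kept, so this count is no measure of robustness. The same limits hold for the other genes that follow. The other genes given with a difference were counted without Eng, Cd44, Nt5e, Cnn1 and Cspg4. Of their alternatives, 542 of 612 kept both direction and side, 65 lost the threshold, 2 passed it (Ccn1 and Ccn2 with the trend) and 3 reversed. These were Stat5a, Polr2b and Spryd3, which ran over the omissions from -0.2 to 0.07, -0.245 to 0.135 and -0.06 to 0.38.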

Other observations

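Proteins outside the family that carry an IGFBP-like domain moved in both directions. Of 10 measured (13 written), 3 rose, 2 fell and 5 did not pass in limma. That is 30.0% and 20.0%, near the 20.4% and 17.2% of all named genes, with a median log2 fold change of -0.04 against 0.04. With any 1 array left out, 1 to 2 rose and 2 fell. Among the CCN matricellular genes, Ccn3 rose from 9.41 and 8.77 to 10.46 and 10.59 (log2 fold change 1.43, adjusted p = 0.000206 from limma) and Ccn5 from 10.86 on both DMSO arrays to 12.34 and 12.06 (1.34, adjusted p = 0.000114). The call of Ccn3 was lost without POG replicate 2 (adjusted p = 0.0567). Esm1, which encodes the proteoglycan endocan, fell by 1.78 (adjusted p = 1.0e-05), and Crim1, a membrane protein that binds BMPs, fell by 0.955 (adjusted p = 0.00162). Ccn1 and Ccn2, both known as YAP target genes, were at -0.42 and 0.35 and did not pass, except with a variance trend (adjusted p = 0.0123 and 0.0118 in limma).

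Of 13 measured FOXO-regulated genes (17 written), 7 rose, 2 fell and 4 did not pass, with a median of 0.66 (0.04 over all named genes). That is 53.8% higher and 15.4% lower, beside 20.4% and 17.2% of all named genes. With any 1 array left out, 2 to 4 rose and 2 fell. The growth arrest gene Gadd45a rose from 11.66 and 11.97 to 13.71 and 14.04 (log2 fold change 2.06, adjusted p = 3.1e-06 from limma). Fbxo32, the ubiquitin ligase atrogin-1, rose from 5.07 and 6.02 to 6.98 and 7.51 (1.70, adjusted p = 0.000287), a call lost without POG replicate 2 (adjusted p = 0.0897). Txnip, a thioredoxin-binding protein, fell from 11.65 and 11.67 to 10.08 and 10.23 (adjusted p = 3.2e-05), and Cited2, a transcriptional coregulator, fell from 10.02 and 9.58 to 8.28 and 8.34 (adjusted p = 6.8e-05).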
